A study of Caenorhabditis elegans with 4 samples.

Results

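The peaks described here are those on the arms of chromosome V of Caenorhabditis elegans, found by chromatin immunoprecipitation and sequencing (ChIP-seq). They were taken from the authors' peak list for the whole series by position alone. A peak belonged to the left arm when its midpoint lay below 5900000 and to the right arm when it lay above 16550000, in WormBase WS220 coordinates. This gave 839 peaks of the 9212 on nuclear chromosomes, with 463 on the left arm (5.9 Mb) and 376 on the right arm (4.37 Mb). The centre of V between these borders (10.65 Mb) held the other 737 peaks of the chromosome. All animals were whole adult hermaphrodites, by their labels, of the strain fem-2(b245), genotype fem-2(b245)III, kept at 20 degrees Celsius. fem-2 encodes a protein phosphatase that promotes male fates, and every sample carries the mutation. The series has 2 ChIP replicates and 2 inputs (DNA that was sheared but not immunoprecipitated), and contains no wild-type or untreated group. The titles name KLE-2, while the antibody entries name CEC-1, so the replicates are identified by number and not by target. Chromatin of all tissues of the animal was mixed, and no label states that the replicates were grown separately.

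KLE-2 is a subunit of condensin II, a complex that compacts chromosomes in mitosis and meiosis. CEC-1 is a chromodomain protein, a class whose members include readers of methylated histones. The arms of worm autosomes differ from the centres in several known ways. They are richer in repeats and in methylation of histone H3 lysine 9, they recombine more often in meiosis, and they hold fewer of the broadly expressed genes. The arms of V are also known for large families of chemoreceptor genes, and V carries the tandem array of 5S ribosomal RNA genes.

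Each list gives a position and a peak caller's score for every peak, with no read counts, so the depth behind a peak is unknown. The scores have no stated scale and were compared only within a list. In replicate 2, 1040 peaks scored 3100 or more, many of them tied at 3100, and in replicate 1 it was 46. Tied peaks cannot be ranked by strength. The replicate lists are very unequal, with 1178 peaks in replicate 1 and 6421 in replicate 2. Inputs were not analysed here. The intervals below are exact 95% intervals that cover counting error only. Tests count peaks, which lie in clusters and are not replicates of the animals, so their p-values are too small. No sequence or gene could be attached to a peak, since no genome or annotation of WS220 was used.

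The first comparison asked whether the arms of V held more or fewer peaks than its centre. In the whole-series list the right arm was the densest part of the chromosome, with 86.0 peaks per Mb (77.5 to 95.1). The left arm had 78.5 per Mb (71.5 to 86.0) and the centre 69.2 per Mb (64.3 to 74.4). The density of the right arm was 1.24 times that of the centre (1.09 to 1.41; adjusted exact binomial p = 0.00681). The ratio of 1.13 for the left arm did not pass the adjusted test (1.01 to 1.28; adjusted exact p = 0.157), nor did the ratio of left to right arm (0.91, 0.80 to 1.05; adjusted exact p = 0.445).

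Neither replicate list gave a right arm density that differed detectably from the centre. Replicate 1 had 53 peaks on the left arm, 51 on the right arm and 115 in the centre, or 8.98, 11.7 and 10.8 per Mb. Replicate 2 had 298, 213 and 560 peaks in the same order, or 50.5, 48.7 and 52.6 per Mb. In replicate 1 the right arm stood at 1.08 times the centre (0.76 to 1.51; exact binomial test, adjusted p = 0.721). In replicate 2 it stood at 0.93 times (0.79 to 1.09; adjusted exact p = 0.544). When whole-series peaks closer than 2000 bp were merged and counted once, the right arm stood at 48.5 per Mb and the centre at 45.5, a ratio of 1.06 (adjusted exact p = 0.811). Whole-series peaks that replicate 2 overlapped gave a ratio of 1.00 (replicate 1 left out; adjusted exact p = 0.969), and those that replicate 1 overlapped gave 1.19 (replicate 2 left out; adjusted exact p = 0.531). The share of sequence under whole-series peaks was also close, at 3.49% on the left arm, 3.70% on the right arm and 3.44% in the centre.

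**Figure D1:**
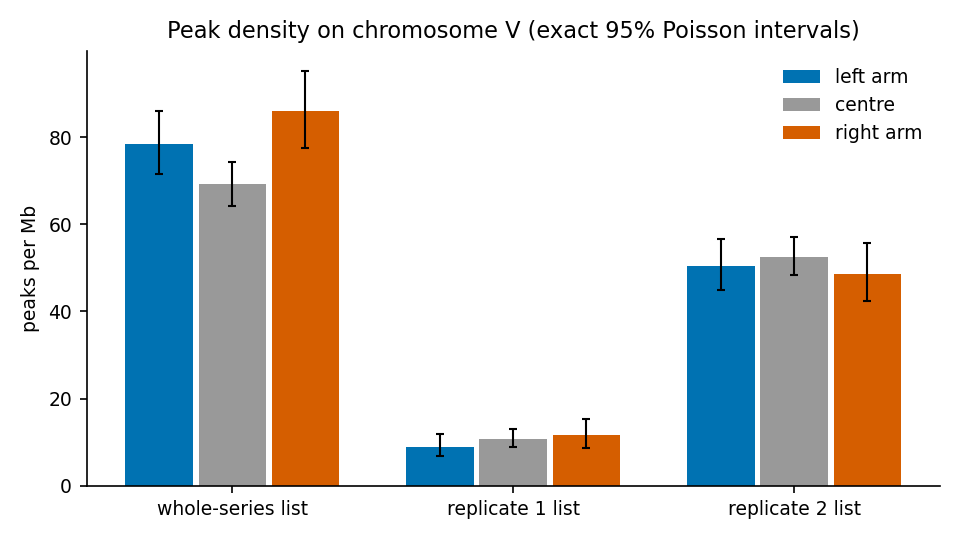
Peaks per Mb on the left arm, centre and right arm of chromosome V in the whole-series list and in the list of each ChIP replicate; bars are densities and whiskers exact 95% Poisson intervals. The right arm stands above the centre in the whole-series list (86.0 against 69.2 per Mb), while the intervals overlap in both replicate lists.

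The strength of the peaks separated the arms from the centre more plainly than their number. Each end of I to IV also had a lower median score than its own centre, as given below. The median whole-series score was 7.81 on the left arm (interquartile range 4.55 to 25.6), 7.59 on the right arm (4.62 to 18.5) and 13.7 in the centre (5.58 to 43.3). On the left arm 205 of 463 peaks (44.3%, 39.7 to 48.9%) scored at or above the median of the nuclear list (9.81), as did 161 of 376 on the right arm (42.8%, 37.8 to 48.0%). In the centre it was 417 of 737 (56.6%, 52.9 to 60.2%), beside 50.2% of all nuclear peaks. The difference from the centre was -12.3 percentage points for the left arm (Fisher's exact test, adjusted p = 6.20e-05) and -13.8 points for the right arm (adjusted p = 4.71e-05). The arms differed from each other by 1.46 points, which did not pass the test (Fisher's exact test, adjusted p = 0.675). Among peaks that replicate 2 overlapped (replicate 1 left out) the differences from the centre were -9.78 and -9.35 points. Among those that replicate 1 overlapped (replicate 2 left out), the left arm turned to 12.5 points above the centre (adjusted Fisher's exact p = 0.0381) and 28.2 points above the right arm (adjusted p = 6.92e-04). This last count takes whole-series peaks on the same replicate 1 peak singly. Replicate 1 peaks with 2 or more whole-series peaks made up 13.2% on the left arm, 29.4% on the right arm and 20.0% in the centre.

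High scores were far scarcer on the right arm than on the left. Of the right arm peaks, 11 of 376 (2.93%, 1.47 to 5.17%) were among the highest-scoring 10% of the nuclear list, a score of at least 86.4, which by construction holds 10% of all peaks. The left arm had 44 of 463 (9.50%, 6.99 to 12.6%) and the centre 93 of 737 (12.6%, 10.3 to 15.2%). The left arm share was 6.58 points above that of the right arm (Fisher's exact test, adjusted p = 1.72e-04), and the right arm differed from the centre by -9.69 points (adjusted p = 7.37e-08). The difference of -3.12 points between the left arm and the centre did not pass the test (adjusted Fisher's exact p = 0.113).

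Split by score quartile of the nuclear list, the order of the compartments turned over from weak to strong peaks, a description without a test. In quartile 1 (scores up to 4.91) the left arm had 23.7 peaks per Mb (20.0 to 28.0), the right arm 25.1 (20.7 to 30.3) and the centre 14.6 (12.4 to 17.1). In quartile 4 (scores from 33.2) these densities were 16.4 (13.3 to 20.1), 11.0 (8.09 to 14.6) and 21.4 (18.7 to 24.4). The ratio of right arm to centre thus went from 1.72 (1.33 to 2.20) in quartile 1 to 1.56 in quartile 2, 1.46 in quartile 3 and 0.51 (0.37 to 0.70) in quartile 4. For the left arm it went from 1.62 (1.28 to 2.05) through 1.30 and 1.03 to 0.77 (0.60 to 0.98). The right arm kept a high density through quartile 3, with 25.8 per Mb against 18.3 on the left arm, and held fewer than the left arm in quartile 4.

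**Figure D2:**
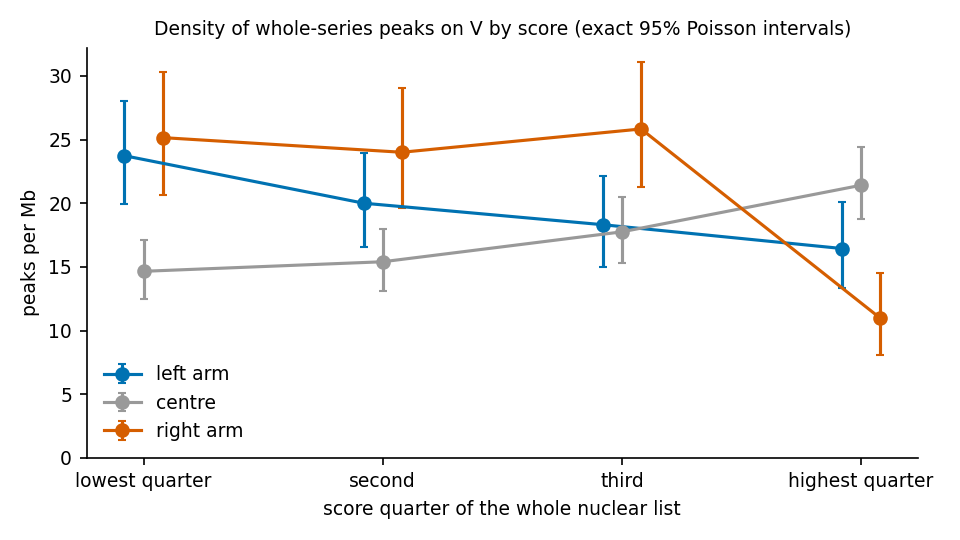
Density of whole-series peaks (peaks per Mb) on the left arm, centre and right arm of V in each score quartile of the whole nuclear list; points are densities and whiskers exact 95% Poisson intervals. Both arms lie above the centre in the lowest quartile, and below it in the highest, where the right arm has 11.0 and the centre 21.4 per Mb.

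Scores in the replicates' own lists were compared in the same way after the whole-series scores had been seen. In replicate 2, 73 of 213 right arm peaks (34.3%, 27.9 to 41.1%) scored at or above that list's median of 457, against 139 of 298 on the left arm (46.6%, 40.9 to 52.5%) and 316 of 560 in the centre (56.4%, 52.2 to 60.6%). The adjusted Fisher's exact p was 2.25e-07 for the right arm against the centre, and 0.0128 both for the left arm against the centre and for left against right. Replicate 2 peaks at 3100 or more made up 8.45% of the right arm (18 peaks), 16.8% of the left arm (50 peaks) and 17.1% of the centre (96 peaks). Over the whole replicate 2 list the share was 16.2%. In replicate 1 the shares above its own median of 148 were 52.8%, 56.9% and 51.3% on the left arm, right arm and centre, and no pair passed the test (adjusted Fisher's exact p from 0.838 to 0.870). Replicate 1 has only 53 and 51 peaks on the arms, and whether the replicates differ from each other in this respect was not tested.

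Whole-series peaks were somewhat narrower on the arms, a difference that was not tested. Median whole-series widths were 294 bp on the left arm, 300 bp on the right arm and 347 bp in the centre. Peaks of 2 kb or more were rare everywhere, with 10 on the left arm (2.16%), 4 on the right arm (1.06%) and 14 in the centre (1.90%), against 1.52% of all nuclear peaks. In replicate 2 the median width was 1018 bp on the left arm, 871 bp on the right arm and 1022 bp in the centre. The widest replicate 2 peak of the right arm measured 3569 bp, compared with 8653 bp on the left arm. Replicate 1 did not show narrower peaks on both arms, with medians of 1115 bp on the left arm, 1287 bp on the right arm and 1238 bp in the centre. Its peaks of 2 kb or more made up 32.1%, 23.5% and 19.1% in the same order, and those of replicate 2 made up 14.4%, 7.04% and 10.4%.

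The next comparison asked how many of the arm peaks a replicate contained, with an overlap of at least 1 bp. On the left arm 332 of 463 peaks (71.7%, 67.4 to 75.8%) were overlapped by at least 1 replicate, and on the right arm 250 of 376 (66.5%, 61.5 to 71.2%). The centre had 589 of 737 (79.9%, 76.8 to 82.8%), and the whole nuclear list 76.8%. The difference from the centre was -8.21 points on the left arm (Fisher's exact test, adjusted p = 0.00369) and -13.4 points on the right arm (adjusted p = 6.98e-06). The difference of 5.22 points between the arms did not pass the test (adjusted Fisher's exact p = 0.128). Taken singly, replicate 2 overlapped 71.1% of left arm, 62.5% of right arm and 77.5% of centre peaks, beside 75.3% of the nuclear list. With replicate 2 alone the right arm also lay below the left (8.56 points, adjusted Fisher's exact p = 0.0217). Replicate 1 overlapped 13.2%, 17.6% and 18.3% in the same order, beside 15.8% of the nuclear list. With it alone the left arm differed from the centre by -5.14 points (adjusted Fisher's exact p = 0.0300), and the right arm did not differ detectably from the centre (-0.76 points, adjusted Fisher's exact p = 0.805). The score of a peak moved with its overlap, and the quartiles show how far. In quartile 1 a replicate overlapped 40.7% of left arm, 42.7% of right arm and 50.6% of centre peaks, and in quartile 4 every peak of all 3 compartments. In quartiles 2 and 3 the left arm was close to the centre (65.2% against 64.0%, and 93.5% against 93.7%). The right arm had 55.2% and 85.8% (97 of 113 peaks in quartile 3, with most unmatched ones in the runs named below). Among peaks at or above the median score the left arm differed from the centre by -0.54 points, which did not pass the test (adjusted Fisher's exact p = 0.805). The right arm differed from the centre by -7.06 points, which did pass (adjusted Fisher's exact p = 0.00399). Most unmatched right arm peaks at or above the median lay in runs of close peaks that no replicate touched. These were the 6 at chrV:17115443-17132088 (scores 12.7 to 21.0) and part of the 13 at chrV:17384153-17394364 (median 10.6). The test counted their peaks singly, and the difference without these runs was not tested.

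Divided by which replicate they were found in, 58 left arm peaks (12.5%) and 51 right arm peaks (13.6%) were overlapped by both, against 15.9% in the centre and 14.3% of the nuclear list. Replicate 2 alone accounted for 271 on the left (58.5%) and 184 on the right (48.9%), against 61.6% in the centre and 61% in the list. Replicate 1 alone accounted for 3 on the left (0.65%) and 15 on the right (3.99%), against 2.44% in the centre and 1.49% in the list. Of the 15 on the right, 5 lay on a single replicate 1 peak, at chrV:20433220-20438366. Neither replicate contained 131 on the left (28.3%, 24.2 to 32.6%) and 126 on the right (33.5%, 28.8 to 38.5%), against 20.1% in the centre and 23.2% in the list. Peaks in neither replicate were mostly weak, with median scores of 4.32 on the left arm and 4.96 on the right. The centre (4.725) and the nuclear list (4.64) had similar medians for such peaks. Single ones scored up to 27.4 on the left arm and 30.7 on the right.

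**Figure D3:**
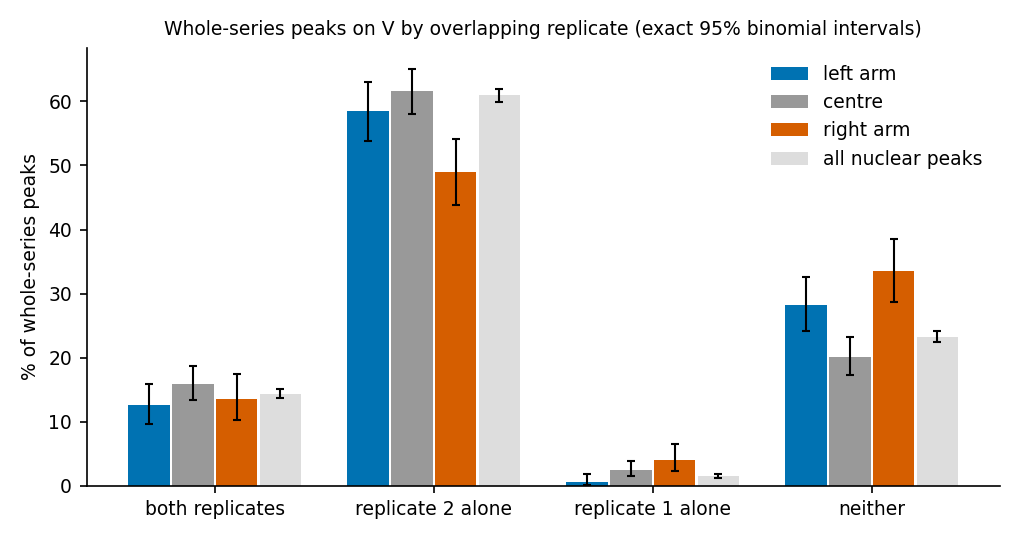
Share of whole-series peaks (percent) found in both replicate lists, in only the second, in only the first and in neither, for the left arm, centre and right arm of V and for all nuclear peaks; bars are shares and whiskers exact 95% binomial intervals. Peaks in neither replicate make up 28.3% of the left and 33.5% of the right arm, above the 20.1% of the centre, and the right arm has the lowest share in replicate 2 alone.

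The peaks that both replicates shared were much weaker on the right arm than elsewhere on V. Their median whole-series score was 94.7 on the left arm (interquartile range 29.0 to 165.7), 25.5 on the right arm (10.7 to 56.1) and 86.7 in the centre (28.1 to 147.6). Scores of 100 or more were held by 27 of the 58 on the left arm (46.6%), 4 of the 51 on the right arm (7.84%) and 51 of the 117 in the centre (43.6%). The replicate 2 peak over them reached 3100 for 46 on the left (79.3%), 18 on the right (35.3%) and 71 in the centre (60.7%). Replicate 1 did not show this order, with median scores of 219 on the left arm, 310 on the right and 213 in the centre. These are descriptions without a test, and neighbouring whole-series peaks can lie on the same replicate peak and repeat its score.

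**Figure D4:**
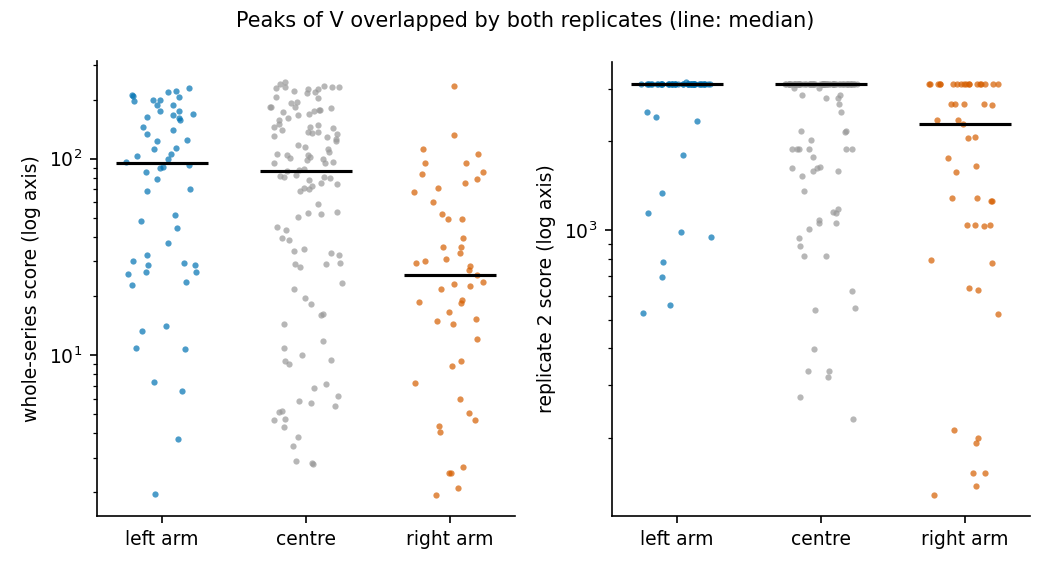
Scores of the whole-series peaks of V that both replicates overlap, as the whole-series score (left panel) and the highest replicate 2 score over each (right panel), both on log axes; each point is a peak and the line is the median. Right arm peaks have a median whole-series score of 25.5 against 94.7 on the left arm and 86.7 in the centre, and fewer of them reach the replicate 2 value of 3100.

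The 5 strongest shared sites of the left arm lay at least 3521 kb from the left end. The highest was at chrV:5776701-5778516 (1816 bp), with a whole-series score of 230.3, a replicate 1 score of 2537 and a replicate 2 score of 3100. It was followed by chrV:5639616-5641761 (221.3, with 999 in replicate 1) and chrV:3520199-3522367 (217.7, with 1097 in replicate 1). The peak at chrV:4063402-4063965 was the narrowest of the first 5, at 564 bp, with a score of 210.3 and only 210 in replicate 1. The fifth, at chrV:5008744-5010857, scored 207.9, with 565 in replicate 1. All 5 had 3100 in replicate 2 and stood above the 99th percentile of the nuclear list.

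On the right arm a single site reached that level. It lay at chrV:18967502-18968002 (501 bp) and scored 235.8, above every left arm peak, with 720 in replicate 1 and 3100 in replicate 2. The next, at chrV:17518858-17519475, scored 132.0 (95th percentile), with 236 in replicate 1. Those at chrV:19770792-19771224, chrV:19933007-19934160 and chrV:20478991-20479496 scored 111.4, 105.2 and 95.6. All 3 had 3100 in replicate 2. Their replicate 1 scores were 152, 1876 and 110, so the fourth site of the arm was the strongest of the 5 in replicate 1. The highest-scored shared peak of the centre, for comparison, scored 245.3 and the fifth 231.4.

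Among peaks that neither replicate contained, the highest scores were modest. On the left arm they were 27.4, at chrV:3434576-3441096, 17.8 at chrV:1537345-1537684 and 16.2 at chrV:266207-266680. The first of these was also the widest peak of the left arm, at 6521 bp. On the right arm the 3 highest lay within 5 kb of each other, at chrV:17389672-17390214 (25.8), chrV:17392357-17392974 (27.4) and chrV:17393428-17394364 (30.7). The widest peak of the right arm, at chrV:17119960-17126011 (6052 bp, score 16.5), was likewise in neither replicate, as was the third widest, at chrV:17129604-17132088 (2485 bp, 13.7). By contrast the second widest on the left arm, at chrV:723917-728184 (4268 bp, 78.4), had 3100 in both replicates.

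Some sites had a peak in 1 replicate only. Replicate 2 overlapped 50 of the 53 left arm peaks of replicate 1 (94.3%, 84.3 to 98.8%) and 42 of the 51 right arm peaks (82.4%, 69.1 to 91.6%), against 90.8% of all replicate 1 peaks. The strongest unmatched peak of replicate 1 on the arms lay on the right, at chrV:20433220-20438366 (5147 bp, score 441), where 5 whole-series peaks scored from 3.98 to 12.9. The strongest on the left was at chrV:1637462-1639564 with a score of 115. In the other direction replicate 1 overlapped 51 of 298 left arm peaks of replicate 2 (17.1%) and 43 of 213 right arm peaks (20.2%), against 16.3% of the list. Unmatched replicate 2 peaks could be strong. The peak at chrV:16965279-16966356 had 3100 in replicate 2 and a whole-series score of 192.8, without a replicate 1 peak.

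In the whole-series list peaks of the arms lay closer together than those of the centre, given here as values without a test. The median gap between neighbouring whole-series peaks was 2.78 kb on the left arm, 3.21 kb on the right arm and 5.57 kb in the centre. Gaps under 2 kb made up 42.6% (38.1 to 47.3%), 43.7% (38.7 to 48.9%) and 34.2% (30.8 to 37.8%), against 40.2% over the nuclear list. Median gaps in replicate 2 had the same order, at 6.28, 6.58 and 8.31 kb for left arm, right arm and centre. In replicate 1 they did not, at 58.3, 48.4 and 53.9 kb. For the share of gaps under 2 kb, neither replicate list had both arms above the centre. Gaps under 2 kb made up 5.77% on the left arm, 20.0% on the right arm and 11.4% in the centre in replicate 1, and 34.0%, 24.5% and 26.3% in replicate 2. Runs of at least 6 peaks with such gaps numbered 8 on the left arm and 5 on the right arm, compared with 3 in the centre, and held 13.8%, 10.4% and 5.02% of the peaks, beside 10.5% of the nuclear list. Left arm peaks were unevenly spread in 100 kb windows, with a median of 5, an upper quartile of 12.5 and a maximum of 23 peaks. The centre had a median of 7, an upper quartile of 8 and a maximum of 30. Across the windows, replicate 1 and replicate 2 counts were related with Spearman's rho of 0.61 on the left arm (59 windows), 0.49 on the right arm (45) and 0.42 in the centre (106). These correlations are across windows of the same 2 libraries, which share their positions on the genome and are not independent.

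The runs of the left arm were of several kinds. The longest, at chrV:2488456-2500676, had 11 peaks with a median score of 4.72, of which replicate 2 overlapped 5 and replicate 1 overlapped 1. At chrV:1254083-1265253 lay 9 peaks with scores from 2.18 to 205.2, of which replicate 2 overlapped 8 and replicate 1 overlapped 4. The 7 peaks at chrV:1833227-1838715, with scores up to 7.81, were in neither replicate. Among the 8 left arm runs, 4 had all their peaks in replicate 2. The densest left arm window, chrV:1800001-1900000, held 23 whole-series and 10 replicate 2 peaks, with 7 whole-series peaks in neither replicate. A pair of windows followed with 21 whole-series peaks each. That at chrV:2400001-2500000 had 5 replicate 2 peaks and 11 peaks in neither replicate, and that at chrV:2600001-2700000 had 20 and 2.

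On the right arm the longest run, at chrV:17384153-17394364, had 13 peaks with scores from 1.31 to 30.7, and no replicate peak touched it. The run at chrV:17115443-17132088 had only 6 peaks, but they covered 71.6% of 16.6 kb with scores in a narrow range from 12.7 to 21.0, and no replicate had a peak there either. Whether either run lies on the 5S array or another repeat was not tested. At chrV:20431257-20438122 replicate 1 overlapped 5 of 6 peaks and replicate 2 only 1, the reverse of the usual order. The run at chrV:19117832-19126953 had all 8 peaks in replicate 2 and 2 in replicate 1. The densest window of the arm, chrV:18900001-19000000, held 22 whole-series, 10 replicate 2 and 7 replicate 1 peaks.

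Along the arms, density followed no simple gradient from the chromosome end. On the left arm the outermost Mb had 61 whole-series peaks (46.7 to 78.4), followed by 88, 90, 61 and 87 in the next 4 Mb. The right arm had 83 (66.1 to 102.9) in its outermost Mb, 106 (86.8 to 128.2) in the next, then 88 and 71. Replicate 2 went from 62 and 64 in the outer 2 Mb of the right arm to 47 and 28 in the next 2, and replicate 1 had 9, 19, 15 and 5. The stretch from 3 to 4 Mb from the right end had the lowest replicate 2 count of any full Mb on the arms and the highest share of peaks in neither replicate, 43 of 71 (60.6%). Without the runs of at least 6 peaks it was 21 of 46 (45.7%), against 83 of 291 (28.5%) in the rest of the right arm, also without such runs. Among the left arm bins this share ran from 10.3% (4 to 5 Mb from the end) to 42.2% (2 to 3 Mb). The longest stretch without a whole-series peak lay on the left arm, at chrV:506807-704641 (197.8 kb), where replicate 2 had 3 peaks. The outermost peaks were at chrV:1-345 (score 22.6, found in both replicates, with 1355 and 2512) and at chrV:20902144-20902320 (6.88, found in replicate 2).

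**Figure D5:**
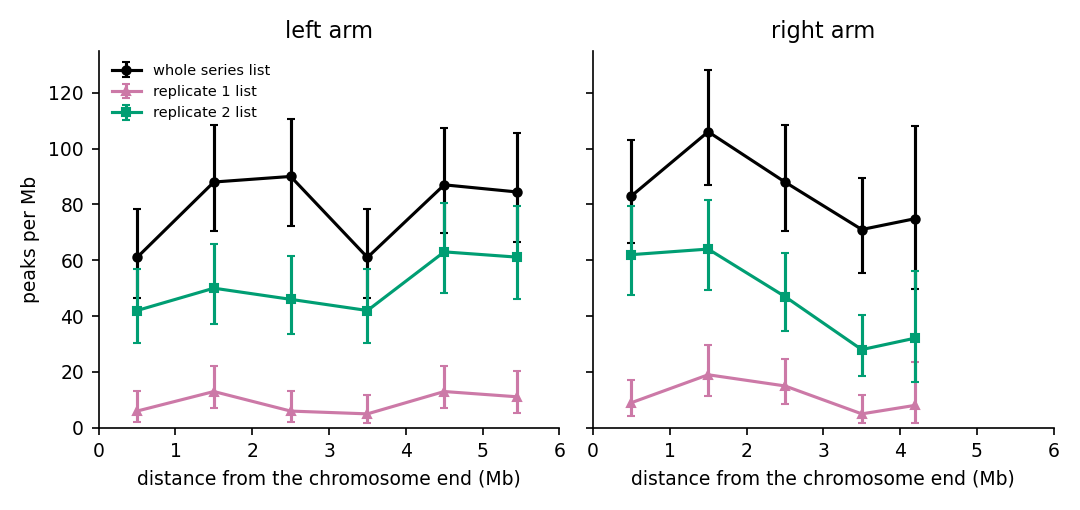
Peaks per Mb in 1 Mb bins by distance from the chromosome end (Mb) on the left and right arm of V, for the whole-series list and the list of each replicate; points are densities and whiskers exact 95% Poisson intervals, and the innermost bin of each arm is shorter (0.9 and 0.374 Mb). Right arm densities of replicate 2 are 62 and 64 in the outer 2 bins and 28 in the fourth, while the left arm has no such order.

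The borders are positions fixed by the rule. The last left arm peak, at chrV:5851721-5851884, scored 2.51 and was in neither replicate, and the first peak beyond it, at chrV:5917690-5918096, scored 37.9. The first right arm peak, at chrV:16552533-16552779, scored 14.8, and the last centre peak before it, at chrV:16547178-16549118, scored 177.9.

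Both arms of V had fewer peaks per Mb than the ends of the other autosomes, taken as the terminal 25% on either side of I to IV. Those ends had 3742 whole-series peaks or 121 per Mb. The density ratio was 0.65 for the left arm (0.59 to 0.71; adjusted exact binomial p = 1.79e-20) and 0.71 for the right arm (0.64 to 0.79; adjusted exact p = 2.55e-11). Of the 8 ends, the sparsest was the left end of II with 81.7 per Mb, which lies between the left and right arm of V, and the densest the left end of I with 177.5. The lower density was not particular to the arms, since the centre of V stood at 0.67 times the density of the centres of I to IV (0.62 to 0.73, not tested), with 69.2 against 103 per Mb and from 84.0 to 123 in single centres. Peaks of the ends of I to IV had a median score of 8.79, and 25.4% of them were in neither replicate, compared with 28.3% and 33.5% on the arms of V. Single ends ran from 17.3% (right end of II) to 35.6% (left end of II), so both arms of V lay within their range. Lower scores, narrower peaks and higher shares in neither replicate were not particular to V. Each end of I to IV had all of these relative to the centre of its chromosome. Median scores ran from 6.88 to 11.1 in single ends and from 10.2 to 14.2 in single centres. Shares in neither replicate ran from 13.7% to 22.1% in single centres. Median widths were 271.5 to 342 bp in the ends and 350.5 to 353.5 bp in the centres. These contrasts were not tested.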

How the data were processed

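The members and the groupings were chosen with earlier results of these data known. Peaks were called by the authors with MACS v2 (whole-series list) and MACS without a stated version (replicate lists), on WS220, per the file headers and contents. Reads were aligned with BWA to ce10, per the submitters' processing notes. The score of each peak is the authors' deposited value, on a scale not given in the sources used here, as are thresholds, duplicate handling and any pooling of replicates. Depth per sample is therefore unknown.

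The 2 mitochondrial peaks were left out. Lengths of the WS220 chromosomes were typed in, and peaks on V reached up to 99.9% of its length. Densities carry exact Poisson and shares exact Clopper-Pearson intervals (scipy 1.17.1, Python 3.11.15). Densities were compared with exact two-sided binomial tests against the share of length, and shares with two-sided Fisher's exact tests. Benjamini-Hochberg adjustment covered 9 density tests, 9 overlap tests, 3 score tests (also 3 for the top 10%), 6 replicate score tests and 2 tests against I to IV, with a threshold of 0.05. The code was checked on simulated counts and intervals with known answers. Named peaks are the 5 highest-scored shared and the 3 highest-scored unshared peaks per arm, the 3 widest, those next to the borders and ends, the densest windows, the longest runs, and the top replicate peaks without a match; the other runs and the longest peak-free stretch were picked after their values were seen. Alternatives changed borders, peaks counted, merging, overlap, runs, chromosome ends and the replicate used.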

Additional observations from a re-analysis of the deposited data

How the results depend on the processing

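No paired analysis was possible because the inputs, which share replicate numbers with the ChIP samples, have no list here, and a peak list of the whole series carries no replicate. Of 77 alternatives to 11 results, 56 kept their side of the threshold without reversing a called value, and 2 without a test stayed within the interval of the main value. Among the 56 were all 8 for the ends of I to IV. Those 8 and the 6 on replicate scores were chosen after seeing the data. The cause was not tested for any change below.

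The density ratio of right arm to centre (1.24) passed without runs of at least 10 peaks, without the outermost 500 kb and with arms of equal length to the centre (1.30), where the left arm also passed (1.28). It missed with arms as the outer 25% of the length (1.15), peaks in at least 1 replicate (1.03) and merged peaks (1.06), was 1.07 in covered base pairs, and turned to 0.94 among peaks at or above the median score. Leaving out a replicate means here that only overlap with the other replicate was counted, and no list was called again. Among whole-series peaks that the other replicate overlapped, the ratio was 1.00 to 1.19. For the share overlapped by a replicate, peaks at or above the median score gave -0.54 points between left arm and centre, no longer passing. Between left and right arm they gave 6.52, then passing. Most unmatched right arm peaks at or above that median lay in the runs at chrV:17115443-17132088 and chrV:17384153-17394364. Leaving out a replicate gave -14.98 to -0.76 points for right arm against centre and -4.38 to 8.56 for left against right. For the share above the median score, the top 10% gave -3.12 points for left arm against centre, not passing, and 6.58 for left against right, passing. Leaving out a replicate gave -9.78 to 12.5 and -0.43 to 28.2 for the same pairs. Replicate 1's own list gave 1.53 (left) and 5.56 (right) against the centre, opposite in sign and not passing, and replicate 2's own list 12.4 for left against right, passing. Unknown depth and the 53 and 51 arm peaks of replicate 1 limit what that list can show.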
